A study of Mus musculus with 3 samples.

Results

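Nestin and its partners in the cytoplasmic intermediate filament network were followed here in cells cultured on plates of rising stiffness. The genes were chosen by name, with their normalized counts in these libraries known, and make up 7 of the 56833 genes in the deposited table: the filament proteins Nes, Vim, Des, Synm, Krt8 and Krt18, and the linker Plec. Their levels and ratios are therefore a description and carry no test. The cells came from mouse ankle synovium of animals of the genotype Efhd1CreER; Ai9, in which a tamoxifen-dependent Cre recombinase expressed from Efhd1 switches on the red reporter tdTomato. Cells positive for tdTomato were sorted, and the labels call them telocytes, an interstitial cell with long thin processes. They were kept for 24 h on collagen-coated plates with a stiffness of 0.2, 8 or 64 kPa, named soft, intermediate and stiff, and their RNA was sequenced. Where 3 values of a gene follow each other, they are in that order. Each level had 1 library, so differences between cultures and differences between stiffness levels cannot be told apart. The number of animals behind each library and the timing of tamoxifen are not given in the sources used here.

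Cytoplasmic intermediate filaments are rope-like polymers that give a cell tensile strength, and each cell type builds them from its own choice of proteins. Vimentin is the filament protein of fibroblasts and other mesenchymal cells, desmin that of muscle, and keratins 8 and 18 form an obligate pair in simple epithelia. Nestin and synemin are large proteins that cannot form filaments by themselves and copolymerise with vimentin or desmin. Nestin is best known from neural progenitors, developing and regenerating muscle and blood vessel walls. Plectin is a giant linker of the plakin family that ties intermediate filaments to actin, microtubules, integrin adhesions and the nuclear envelope.

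The 250 bases before the gene starts of Nes, Synm and Vim are shown to set Nes beside Synm, a gene for a related filament protein, and Vim, the most abundant filament gene. The sequences are those of RefSeq for GRCm38.p6, in which 6 of the 7 genes were found. Nes lies at chr3:87970843-87971092 on the plus strand, Synm at chr7:67759743-67759992 on the minus strand and Vim at chr2:13574061-13574310 on the plus strand. Capitals mark matches, on either strand, to the TATA box TATAAA, the CCAAT box CCAAT and the GC box GGGCGG.
Nes: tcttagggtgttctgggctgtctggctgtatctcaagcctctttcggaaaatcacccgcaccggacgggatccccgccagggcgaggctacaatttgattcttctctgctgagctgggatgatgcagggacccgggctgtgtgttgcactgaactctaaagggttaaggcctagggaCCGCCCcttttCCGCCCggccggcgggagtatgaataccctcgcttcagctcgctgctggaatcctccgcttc
Synm: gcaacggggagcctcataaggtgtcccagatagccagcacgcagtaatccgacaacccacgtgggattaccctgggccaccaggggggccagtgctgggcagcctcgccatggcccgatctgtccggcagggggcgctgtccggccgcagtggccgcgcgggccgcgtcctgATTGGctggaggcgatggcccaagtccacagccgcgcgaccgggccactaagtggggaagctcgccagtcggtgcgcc
Vim: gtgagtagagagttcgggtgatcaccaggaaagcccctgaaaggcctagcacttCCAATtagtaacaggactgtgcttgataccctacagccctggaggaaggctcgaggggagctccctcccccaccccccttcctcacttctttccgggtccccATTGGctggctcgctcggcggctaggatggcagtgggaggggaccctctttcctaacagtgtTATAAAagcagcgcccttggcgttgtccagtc
The Nes window held 2 GC boxes, the Synm window 1 CCAAT box, and the Vim window 2 CCAAT boxes and 1 TATA box. None of the marked matches overlapped another. Of 32817 RefSeq windows of the same length, 32.7% held a GC box, 33.8% a CCAAT box and 12.4% a TATA box. The TEAD site GGAATG, the AP-1 site TGANTCA and the CArG box of serum response factor were searched on both strands as well. None of these 3 motifs was found in the windows of the 6 genes, against 12.6%, 6.75% and 1.47% of all windows. A match is a description of letters and not evidence of binding, and nothing follows from its absence in so short a window.

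The 3 libraries comprised 25487064, 28081600 and 26474862 reads, recovered from the deposited normalized counts, which are reads divided by a size factor per library. Efhd1, whose Cre marks the cells, had 10, 5 and 3 reads. Among other genes used to recognise telocytes, Pdgfra stood between 5118 and 6298 normalized counts, Cd34 between 235 and 318 and Kit between 38.7 and 45.1. All 8 telocyte markers chosen here had reads, with a summed level of 14226 to 15846 normalized counts. Most of that sum came from Pdgfra, which is also on the fibroblast list used below, and from Pdgfrb, at 7766, 8354 and 7732. Foxl1 had 238, 233 and 186 normalized counts, and Gli1 had 9, 12 and 8 reads. All 12 macrophage markers were detected as well, and their summed level was 28367, 35473 and 62782. The 9 smooth muscle markers summed to 16367, 21019 and 68575 normalized counts.

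Nes showed the widest range of the set. It stood at 169, 291 and 774 normalized counts, from 165, 309 and 755 reads. The stiff library was therefore 4.58-fold above the soft one and 2.66-fold above the intermediate one, and the intermediate library 1.72-fold above the soft one. Ratios are given below as log2 values computed with a pseudocount of 1, with an exact 95% counting interval that covers counting error only. For Nes the stiff-to-soft log2 ratio was 2.19, with an interval from 1.95 to 2.45. It was 0.78 (0.51 to 1.07) for 8 against 0.2 kPa and 1.41 (1.22 to 1.61) for 64 against 8 kPa. All 3 intervals lay above 0, and the step from 8 to 64 kPa was the larger one.

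Vim was the dominant filament gene at every stiffness and varied least in relative terms. Its level was 94005, 103009 and 111934 normalized counts. The order of the libraries was the same as for Nes, but the highest was only 1.19-fold above the lowest. Its stiff-to-soft log2 ratio was 0.25 (0.24 to 0.26), and those of the 2 steps were 0.13 and 0.12. With so many reads the counting intervals of Vim are narrow, and they say nothing of how cultures vary.

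Synm, which encodes the nestin-like filament protein synemin, had 73.8, 94.3 and 131 normalized counts. Its stiff-to-soft log2 ratio was 0.82, with an interval from 0.40 to 1.27. The step from soft to intermediate was 0.35 (-0.10 to 0.81), which is not detectable at this depth, and that from intermediate to stiff was 0.47 (0.09 to 0.87). Des, the muscle filament gene, had 64.6, 88.6 and 83.1 normalized counts. Its highest library was the intermediate one, and no difference was detectable, with log2 ratios of 0.36 (-0.13 to 0.86) for 64 against 0.2 kPa and -0.09 (-0.54 to 0.35) for 64 against 8 kPa.

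The simple epithelial keratins were missing or close to it. Krt8 had 0 reads in all 3 libraries, which allows up to 3.08, 2.83 and 3.08 normalized counts. Its obligate partner Krt18 had 2, 4 and 1 reads, too few to compare. The pseudogene Krt8-ps also had 0 reads, and how reads shared between such copies were counted is not given in the sources used here.

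Plec was, beside Nes, the only one of the 7 genes with a log2 ratio of at least 1 between any libraries and a mean of at least 50. It had 1410, 2381 and 3356 normalized counts, a 2.38-fold difference between the extremes. The log2 ratio was 1.25 (1.16 to 1.34) for 64 against 0.2 kPa, 0.76 (0.66 to 0.85) for 8 against 0.2 kPa and 0.50 (0.42 to 0.57) for 64 against 8 kPa. Its larger step lay between 0.2 and 8 kPa, an order that turned with the local linear fit to genes of similar length and GC content, which left -0.05 for that step and 0.14 for 64 against 8 kPa. With a local median over such genes the order stayed, at 0.34 and 0.22.

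**Figure D1:**
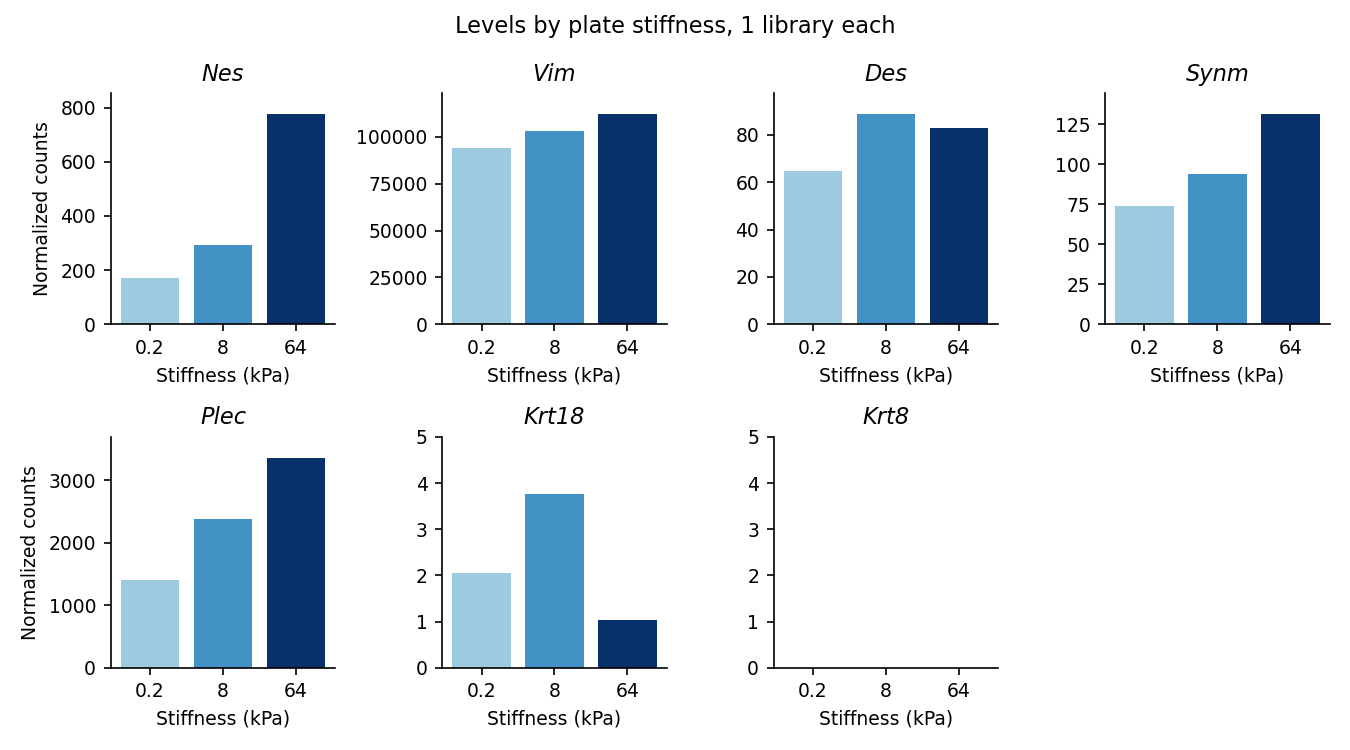
Normalized counts (vertical axis, from 0, a scale of its own in each panel) of the 7 genes by plate stiffness in kPa, with 1 bar per library and no error bar because each level has 1 library. Nes goes from 169 to 774 and Plec from 1410 to 3356, Vim stays between 94005 and 111934, and Krt8 is at 0.

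**Figure D2:**
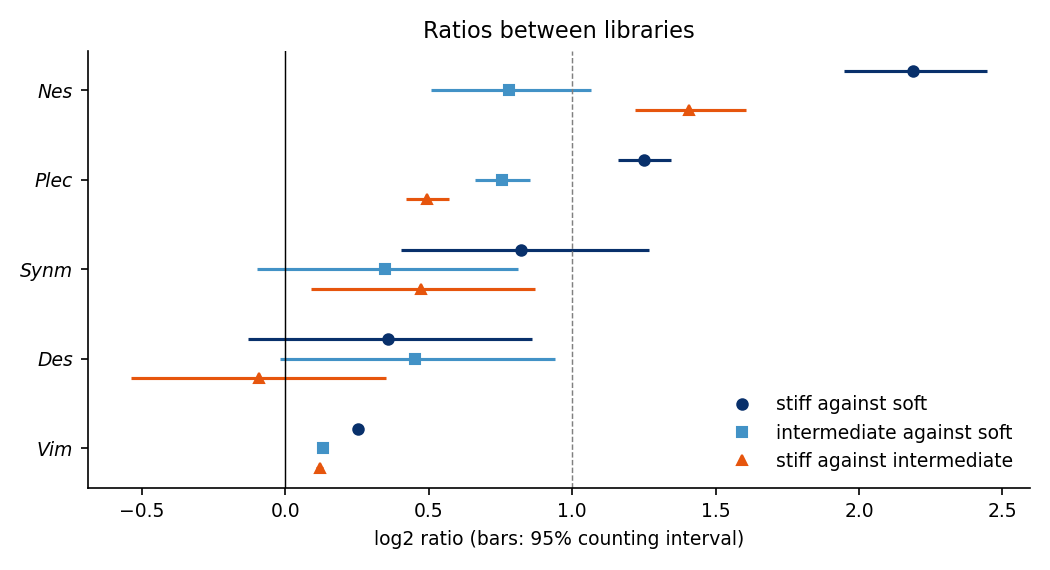
Log2 ratios (horizontal axis) of the 5 measured genes in 3 comparisons, with bars for the 95% counting interval and a dashed line at a log2 ratio of 1. Nes lies at 2.19 and Plec at 1.25 for stiff against soft, and the intervals of Des include 0 in every comparison.

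The ratios were read against all genes. A mean of 50 or more normalized counts was reached by 11873 genes, among them 5 of the 7: Nes, Vim, Des, Synm and Plec. For 64 against 0.2 kPa, 3.22% of all these genes were higher by 1 or more on the log2 scale, and 2 of the 5 were, Nes and Plec. None of the 5 was lower by as much, against 0.387% of all genes. For 8 against 0.2 kPa none of the 5 was that much higher or lower, against 0.16% of all genes higher and 0.00842% lower. For 64 against 8 kPa only Nes was higher, against 0.825% of all genes, and none of the 5 was lower, against 0.421%. The median log2 ratio of the 5 was 0.82 for 64 against 0.2 kPa, 0.45 for 8 against 0.2 kPa and 0.47 for 64 against 8 kPa, and that of all genes was 0.00, 0.01 and 0.01. These genes were picked with their values known, so the counts support nothing beyond themselves. By the ratio of stiff to soft Nes ranked 6 of 11873, Plec 142, Synm 625, Des 2041 and Vim 2803.

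**Figure D3:**
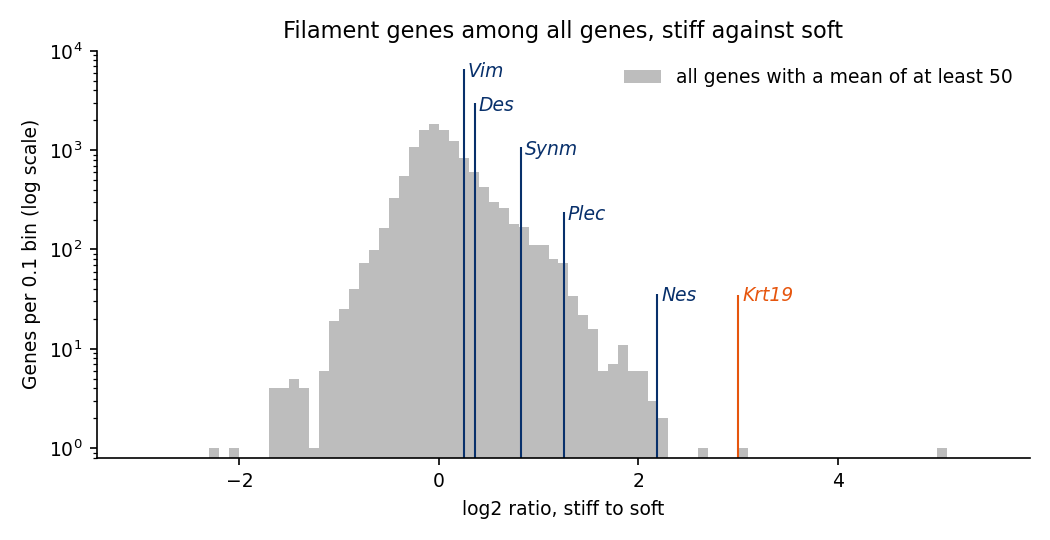
Histogram of the stiff to soft log2 ratio (horizontal axis) of 11873 genes, as genes per bin on a log scale, with lines at 5 filament and linker genes and at the keratin gene Krt19. Nes at 2.19 and Krt19 at 3.00 stand in the sparse right tail, while Vim at 0.25 and Des at 0.36 lie inside the bulk.

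Long, GC-rich transcripts had higher ratios than the rest of the table for 64 against 0.2 kPa. Over genes whose mean reached 50 normalized counts, the median log2 ratio was 0.79 for 67 genes with a canonical transcript of at least 8000 nt and at least 55% GC, limits set after values were seen, and 0.0042 for the other 11588 with an annotated length. Plec has a canonical transcript of 15003 nt and 32 exons with 61.1% GC, the longest of the 7, and Nes one of 6126 nt and 4 exons with 55.5% GC. Synm measures 7904 nt, Des 3134 nt and Vim 2193 nt. A local linear fit to genes of similar length and GC content gave Plec a trend of 1.12 for 64 against 0.2 kPa, which left 0.13 of its log2 ratio of 1.25, and a local median left 0.61. For 8 against 0.2 kPa the local linear fit left Plec at -0.05, so its direction there turned, and the local median left it at 0.34. For Nes the trend was 0.39 and 1.80 was left, or 1.82 with the local median. Synm kept 0.39 and 0.47, Vim 0.22 and 0.24 and Des 0.19 and 0.22 by the local linear fit and the local median. Most of the Nes ratio was thus left by both corrections, and little of the Plec ratio by the local linear fit. Whether the trend is technical was not tested.

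Levels of different genes were compared per length, as TPM, which is reads divided by the length of the canonical transcript and scaled to the same sum in every library. Vim had 3750, 4146 and 4466 TPM. Plec followed at 8.22, 14.0 and 19.6 TPM, and Nes at 2.42, 4.20 and 11.1 TPM. Des had 1.80, 2.50 and 2.32 TPM and Synm 0.817, 1.05 and 1.45 TPM. In the soft library the counting intervals of Nes (2.06 to 2.81) and Des (1.39 to 2.31) overlapped with this length, and in the other libraries Nes was above Des without overlap. Des was above Synm in all 3 libraries without overlap. These orders depend on the length used. With the union of all exons as length Nes had 4.29, 7.42 and 19.6 TPM and Des 2.04, 2.82 and 2.62, so that Nes was above Des in the soft library too. Synm then had 1.51, 1.93 and 2.67 TPM, and in the stiff library it was no longer below Des.

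Among 35 cytoplasmic filament genes measured per length, Vim made up 99.6% of the transcripts in the soft and intermediate and 99.3% in the stiff library. The share of Nes was 0.0642%, 0.101% and 0.246%, or 0.132%, 0.208% and 0.506% with the union of all exons as length. A ratio of reads to Vim needs no scaling of the libraries. There were 18.0 reads of Nes per 10000 reads of Vim in the soft library (15.4 to 21.0), 28.3 in the intermediate (25.2 to 31.6) and 69.2 in the stiff library (64.3 to 74.3). The 3 intervals did not overlap, so the reads of Nes against those of its polymerisation partner differed beyond counting error. For Synm the values were 7.85 (6.14 to 9.89), 9.15 (7.45 to 11.1) and 11.7 (9.78 to 13.9), and for Des 6.87, 8.60 and 7.42, with intervals that overlapped between all libraries for both genes. Such overlap does not mean that no difference was present. For Synm it was narrow between soft and stiff, and the interval of its stiff-to-soft log2 ratio (0.40 to 1.27) lay above that of Vim (0.24 to 0.26).

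**Figure D4:**
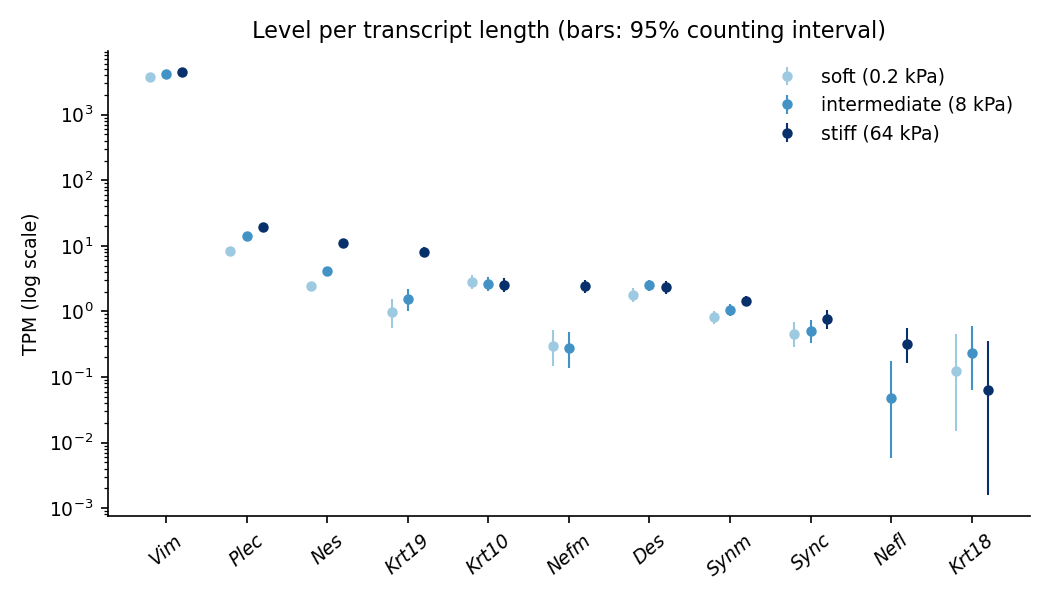
Level per transcript length in TPM (vertical axis, log scale) of filament genes and Plec in the 3 libraries, with bars for the 95% counting interval and values of 0 left out. Vim stands at 3750 to 4466 TPM and all others at or below 19.6, and all but Des, Krt10 and Krt18 are highest in the stiff library.

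Other filament genes, from lists drawn up for this description, differed in unequal ways. Of 20 other keratins 6 had no read and 2 reached the minimum mean. Krt19, a small keratin of ductal and simple epithelia, was one of these, with 17.4, 27.3 and 147 normalized counts. Its stiff library was 8.41-fold above the soft one, a log2 ratio of 3.00 (2.34 to 3.89), and the ratio was 3.01 after the local linear fit. Krt10, a keratin of the differentiating epidermis, had 68.7, 63.2 and 61.5 normalized counts and showed no detectable difference. The stiff library thus had many more Krt19 reads without Krt8, and with 1 read of Krt18. Other epithelial markers were low in every library: Epcam had 1 read in the soft and 1 in the stiff library, Esrp1, Krt14 and Cldn4 had none, and Cdh1 had 10.3, 9.43 and 18.5 normalized counts.

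The other 9 filament genes of neurons, glia, muscle and lens were all below the minimum mean. Nefm, the medium neurofilament gene, had 11.3, 10.4 and 92.3 normalized counts. That is 8.18-fold from soft to stiff, a log2 ratio of 2.93 (2.13 to 4.09). Nefl, which encodes the light neurofilament chain, had 0, 2 and 12 reads, and Nefh, for the heavy chain, had none. Sync, for the muscle filament protein syncoilin, had 22.6, 24.5 and 37.9 normalized counts, and its interval of stiff to soft, from -0.05 to 1.58, includes 0. Gfap, the astrocyte filament gene, had at most 3 reads. The 3 nuclear lamin genes stayed within narrow bounds, with stiff-to-soft log2 ratios of 0.34 for Lmna, 0.10 for Lmnb1 and 0.07 for Lmnb2.

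Linkers and partners of the filaments were examined next. Of 11 plakin and desmosomal linker genes 5 reached the minimum mean, and 2 of these were higher by 1 or more on the log2 scale for 64 against 0.2 kPa, as were 3.22% of all genes. They were Pkp2 (1.08), for plakophilin 2, and Jup (1.01), for plakoglobin. All 5 had a ratio above 0, with a median of 0.63. Dst and Macf1, the giant plakins related to Plec, had ratios of 0.63 and 0.48, which became -0.25 and -0.16 after the local linear fit, so their direction turned there, and 0.20 and 0.23 with the local median, where it did not. Of 17 membrane and cytoskeleton partners 16 reached the mean, and 4 were higher by that much and none lower, against 3.22% and 0.387% of all genes. Dtna, which encodes dystrobrevin alpha, a binding partner of syncoilin, had 31.8, 53.7 and 86.1 normalized counts (log2 ratio 1.41). Tln1, for the integrin-binding protein talin, stood at 1.40 and Actn1, for an actin crosslinker, at 1.18. The fourth was Zyx, a focal adhesion gene, at 1.13, named after its value was seen. After the local linear fit Dtna kept 1.42 and Pkp2 1.05, whereas Jup was at 0.81, Tln1 at 0.73, Actn1 at 0.97 and Zyx at 0.94, all below the threshold. With the local median Actn1 stayed just past it, at 1.01, and Jup (0.85), Tln1 (0.79) and Zyx (0.94) did not. The lowest in this list were Nebl (-0.86), for nebulette, Sgcd (-0.21), for delta-sarcoglycan, and Dnajb6 (-0.07), for a chaperone of desmin filaments.

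Enzymes that modify filament proteins were taken from a list of 16 genes, of which 15 reached the mean. Rock2, a kinase for vimentin, had a log2 ratio of 0.56 for 64 against 0.2 kPa and Prkce one of 0.35. The lowest were the nestin and vimentin kinases Cdk5 (-0.37) and Cdk1 (-0.35), and Aurkb (-0.25), the last 2 also mitotic kinases. The median of this list was 0.06.

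Transcription factors of neural progenitors and of mechanical signalling were listed too. Pax6 and Pou3f2, neural regulators, had no read, and Sox2 had 1 read in each library. Of 16 factors 10 reached the mean, and none passed a log2 ratio of 1 between stiff and soft, against 3.22% of all genes higher and 0.387% lower. The highest ratios of stiff to soft were 0.997 for Tead1, just under the threshold, 0.94 for Gli2, a transcription factor of hedgehog signalling, and 0.88 for Mrtfa, a cofactor of serum response factor. The lowest were -0.27 for Sp3, -0.14 for Sp1 and -0.02 for Yap1.

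The genes with a pattern most like that of Nes were sought by distance in the pair of log2 ratios to the soft library, over 3 libraries and 10675 other genes with a mean of 100 or more. The nearest were Fndc1 at 0.18, Marco at 0.21, Pld4 at 0.23, Stab1 at 0.28 and Acta1 at 0.31. Marco and Stab1 encode scavenger receptors of macrophages, and Acta1 encodes skeletal muscle actin. Within a distance of 0.25 lay 3 genes for Nes, 99 for Plec, 506 for Synm, 571 for Des and 3184 for Vim. These counts follow from how far the ratios of each gene lie from those of most genes, and so restate the ratios. The nearest to Plec were Ubr4, Lrp1 and Dync1h1, whose transcripts of 15985, 14906 and 16498 nt are near its own 15003 nt in length. The nearest to Synm were Slc9a3r1, R3hdm2 and Cep164. With 3 libraries such a likeness describes these values and no more.

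Markers of other cells that use these filament genes were compared. In bulk RNA a change in the number of cells of a type and a change in RNA per cell cannot be told apart. The 8 fibroblast genes all reached the mean and summed to 243037, 288477 and 343668 normalized counts, the largest sum of any marker list. Between stiff and soft 5 of them were higher and 3 lower, and none passed the threshold in any comparison. Their stiff-to-soft log2 ratios ran from -0.44 for Dcn to 0.95 for Col1a1, with a median of 0.19. Nestin-bearing pericytes were represented by 7 genes with summed levels of 2367, 3277 and 3138 normalized counts. Cspg4 made up 1642, 2496 and 2376 of that sum and Notch3 529, 601 and 512. Of the 7 genes 4 reached the mean, and none of these passed the threshold in any comparison. Cspg4 and Mcam had stiff-to-soft log2 ratios of 0.53 and 0.86, and the intervals of Notch3 and Rgs5 included 0. Rgs5 was lowest in the intermediate library, at 89.2, 57.5 and 84.1. Abcc9 had 13.3, 7.54 and 2.05 normalized counts, with a stiff-to-soft interval of -5.89 to -0.56. Kcnj8 had 4, 0 and 1 reads, and Higd1b was at 0. The 8 endothelial genes summed to 178, 225 and 197, of which Egfl7, the only 1 to reach the mean, made up 121, 146 and 111, with Cldn5 at 0. Members of this list differed in direction: Pecam1 had 12.3, 12.3 and 4.10, with a stiff-to-soft interval of -3.67 to 0.14 that includes 0, and Kdr had 21.5, 25.5 and 46.1, with one of 0.32 to 1.92. The 8 Schwann and neural progenitor genes summed to 322, 344 and 430, of which Mbp made up 120, 156 and 280 and S100b, in the opposite order, 173, 155 and 114. The 8 skeletal muscle and satellite cell genes summed to 93.3, 99.0 and 129, of which Actn3 made up 78.9, 82.0 and 97.4, with Myh4 at 0. Among 5 mesothelial genes 4 had no read, and Upk3b had 3 reads in the stiff library. Between stiff and soft, summed levels of macrophage and smooth muscle markers differed by log2 ratios of 1.15 and 2.07, beside 2.19 for Nes, and the part of either in the Nes result was not tested. Of the macrophage markers 12 of 12 were higher in the stiff library than in the soft one and 9 by 1 or more on the log2 scale, against 3.22% of all genes, with Lyz2 at 18362, 21482 and 39173. Of the smooth muscle markers 8 reached the mean and 6 were higher by that much, against the same 3.22%, while Myh11, specific to mature smooth muscle, had 7.18, 6.60 and 10.3 normalized counts.

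On GRCm39 the genes lie apart, except for the keratin pair and Plec, which share chromosome 15. Nes spans 87878385 to 87887758 on chromosome 3, Synm 67379908 to 67409527 on chromosome 7 and Plec 76055174 to 76116774 on chromosome 15. The exons of Plec share 205 nt with Parp10 on the same strand, which had 221, 288 and 237 normalized counts, and those of Synm share 84 nt with Ttc23 on the opposite strand, which had 497, 473 and 456. Neither neighbour followed the order of its partner over the 3 libraries. Among genes of the deposited table none was annotated as overlapping Nes.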

How the data were processed

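RNA of 3 cultures, 1 library each, was sequenced from stranded mRNA libraries, per the labels' protocols. The submitters' processing notes name GRCm39, STAR 2.7.9a, featureCounts, Subread 2.0.1 and DESeq2 1.34.0, with no roles. The annotation and any use of strand in counting are not given in the sources used here. The 3 deposited files hold 1 identical table, and its columns were matched to libraries by title. Per the file names, the deposited signal is reads per gene normalized with DESeq2, that is, over 1 size factor for each library. In each column 100% of values were whole multiples, within 0.001, of the smallest positive value, and reads were recovered by that division, with 1 read worth 1.03 (soft), 0.943 (intermediate) and 1.03 (stiff) normalized counts. A count of 0 allows up to 3 reads.

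With 1 library per level no test was made. Log2 ratios used a pseudocount of 1, which understates low genes. Intervals of ratios are 95% and come from the exact Clopper-Pearson method on the reads of both libraries, and those of TPM from the exact Poisson method. They cover counting error only. TPM used canonical transcript lengths of GENCODE vM39, matched by symbol for 52661 of 56833 genes, which hold 98.7% of reads. Alternatives were 4 scalings, 2 pseudocounts, other thresholds and 2 corrections for length and GC content, fitted to 13923 genes with a mean of at least 10. The members and lists were chosen with earlier results of these data known. Named genes are the 7 members, the genes of each list with a mean of at least 50 and the up to 3 highest and lowest stiff to soft ratios, any gene of a list with fewer than 10 genes, and the nearest genes in pattern (5 for Nes, 3 for Plec and Synm). Single markers of other cells and Krt8-ps fall outside this rule and were named after their values were seen. A gene that the rule names is not reported here. The calculations were tested on simulated data. The tools were scikit-learn 1.9.0, matplotlib 3.10.9, scipy 1.17.1, pandas 2.3.3 and numpy 2.4.6 under Python 3.11.15.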

Additional observations from a re-analysis of the deposited data

How the results depend on the processing

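No paired analysis was possible because each level had 1 library, and leaving out a replicate was not possible for the same reason. Of 18 log2 ratios of members with reads, 17 kept their sign under every alternative tried, and the exception was Plec between intermediate and soft, at -0.05 with the local linear fit for length and GC content. Of the 18, 10 stayed inside their counting interval throughout. The Nes ratio of stiff to soft left it at 1.82 with the local median and 1.80 with the local linear fit, and stayed inside it under the 4 scalings and both pseudocounts. With either correction, or with a log2 threshold of 2, the members past the threshold between stiff and soft were 1 in place of 2. With a threshold of 0.5 they were 3 between stiff and soft, where Synm joined, and 2 for 8 against 0.2 kPa in place of 0. For 64 against 8 kPa they were 0 with a threshold of 2, and 2 without a minimum mean, where Krt18 passes on 4 reads against 1. With the corrections the threshold and minimum mean were as before and Plec fell below the threshold; the other counts here moved because the threshold or filter itself was changed. The scalings shifted the median ratio of all genes by -0.058 to 0.0067. With a mean of at least 200, 3 of the 5 genes nearest to Nes were shared. The use of the union of all exons as length, chosen after seeing the data, raised the share of Nes in filament transcripts to 0.132%, 0.208% and 0.506% and placed Synm (0.0690%) beside Des (0.0676%) in the stiff library, so the order of those 2 genes there depends on the length used. Low read numbers limit what can be said of Krt8, Krt18, Des and the neurofilament genes.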
